A study of Mus musculus with 4 samples.

Results

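Ncl, Npm1, Tcof1, Gnl3, Mybbp1a and Nop53 encode nucleolar proteins that sense or relay nucleolar stress to p53. They were listed by name as abundant nucleolar proteins linked to p53, with no measured value in the rule though with earlier results of these data known, and all 6 were found among the 12390 genes of the deposited table. The libraries are bulk RNA from sorted cells, labelled as mouse hematopoietic stem cells of the bone marrow taken by the gate Lin-Sca-1+c-Kit+CD48-CD150+. The 2 control libraries (sample titles Ddx21_fl, genotype WT) came from floxed mice for which no Cre is listed, and the 2 knockout libraries (titles Ddx21_CKO, genotype KO) from floxed mice that also carry CAG-CreERT2. Both groups therefore carry the floxed Ddx21 alleles, which the series text spells Ddx211fl/fl. CAG is a promoter active in most cell types and CreERT2 is a recombinase switched on by tamoxifen, so deletion is not limited to stem cells. The labels give no age, no tamoxifen schedule and no word on whether libraries came from separate animals. The p-values therefore measure the spread between these libraries, which may be technical. In the reported test that spread was taken from genes of similar level, not from each gene's own replicates.

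The nucleolus is where RNA polymerase I makes ribosomal RNA and where ribosomal subunits begin to assemble. Ddx21 is a nucleolar RNA helicase that takes part in both. When ribosome production fails, nucleolar proteins and free ribosomal proteins can reach the nucleoplasm and hold back Mdm2, the ubiquitin ligase that limits p53. Nucleolin (Ncl), nucleophosmin (Npm1) and treacle (Tcof1) are heavily phosphorylated proteins of the nucleolus. Nucleostemin (Gnl3) is a GTPase known for its high level in stem and dividing cells. Mybbp1a leaves the nucleolus under stress and favours p53 acetylation, and Nop53, also called Pict1, keeps the ribosomal protein Rpl11 in the nucleolus.

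The coding sequences differ in the features by which these proteins are known. Stretches of codons for aspartate or glutamate, written in capitals, are shown for Npm1 and Mybbp1a as examples of a long and a short acidic tract. A stretch of arginine codons, also in capitals, is shown for Nop53, the member with the largest share of lysine and arginine codons. Each is flanked by 6 codons on either side in lower case and was read 5′ to 3′ from the principal coding transcript of GENCODE M21.
Npm1: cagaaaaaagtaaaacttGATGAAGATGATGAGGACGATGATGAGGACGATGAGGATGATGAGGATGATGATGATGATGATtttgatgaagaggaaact
Mybbp1a: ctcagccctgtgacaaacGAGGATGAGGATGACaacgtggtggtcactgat
Nop53: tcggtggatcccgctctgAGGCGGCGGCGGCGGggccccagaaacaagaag

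In mm10, the gene Ncl (ENSMUSG00000026234) spans chr1:86344719-86359400 on the minus strand and Npm1 (ENSMUSG00000057113) chr11:33152287-33163206 on the minus strand. Tcof1 (ENSMUSG00000024613) spans chr18:60813755-60848971 on the minus strand and Gnl3 (ENSMUSG00000042354) chr14:31012433-31019152 on the minus strand. Mybbp1a (ENSMUSG00000040463) spans chr11:72441355-72451768 on the plus strand and Nop53 (ENSMUSG00000041560) chr7:15936183-15946074 on the minus strand. The Npm1 stretch lies at chr11:33157015-33160336 and crosses intron sequence. Within single exons are the Mybbp1a stretch at chr11:72447556-72447606 and the Nop53 stretch at chr7:15945919-15945969. Run lengths are given for the 5 genes other than Ncl, with no order against Ncl. The unbroken acidic run held 21 codons in Npm1, from codon 159 to 179. Among 10142 protein-coding genes of the table, 0.168% had a run as long as that of Npm1, against a median run of 3 codons. Mybbp1a and Tcof1 had runs of 5 codons, a length reached by 11.99% of genes, and Gnl3 and Nop53 had runs of 3. Codons for aspartate or glutamate made up 24.1% of the Ncl and 22.6% of the Npm1 coding sequence, and between 12.2% and 14.9% in the other 4, where the median gene had 11.98%. Tcof1 stood out for serine, the residue most often phosphorylated, with 14.9% serine codons, a share reached by 1.18% of genes. Ncl had 5.52% and Npm1 7.53% serine codons, shares reached by 84.1% and 51.02% of genes, so neither was rich in serine. Nop53 stood out for lysine and arginine, with 22.5% of its codons, a share reached by 1.58% of genes. Its longest unbroken run of these was 5 codons, a length reached by 7.05% of genes, and was shorter than those of Tcof1 with 8 codons (0.483%) and Mybbp1a with 6 (2.5%). Acidic codons were thus more frequent in Ncl and Npm1 than in the other 4.

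Values are RPKM, reads per kilobase of a gene's longest annotated transcript and scaled to library size. Recovered reads numbered between 43218009 and 62871440 per library, and the 6 genes together took 0.271% and 0.313% of control reads and 0.271% and 0.274% of knockout reads. Counting error was at most 2.15% of a value, reached for Tcof1 in control replicate 1. It covers the counting of reads only, since amplified reads are not independent molecules.

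The order of levels was the same in every library. Npm1, a histone chaperone of the granular outer nucleolus, was highest, with rank 87 to 104 among all genes. Control libraries averaged 842 ± 41.1 RPKM and knockout libraries 782 ± 86.3 RPKM (SD, n = 2). Ncl, an RNA-binding protein of RNA polymerase I transcription and rRNA processing, followed with 118 ± 19.6 and 99.3 ± 8.48 RPKM. Gnl3 and Mybbp1a came next and were not separated by their spread over the 4 libraries. Gnl3 ranged from 62.6 to 84.0 RPKM and Mybbp1a from 50.2 to 62.7 RPKM. Nop53, a factor of large subunit assembly, ranged from 33.6 to 50.8 RPKM and touched the range of Mybbp1a. Tcof1, a cofactor of RNA polymerase I, was lowest at 8.41 to 15.6 RPKM, below Nop53 in every library.

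**Figure D1:**
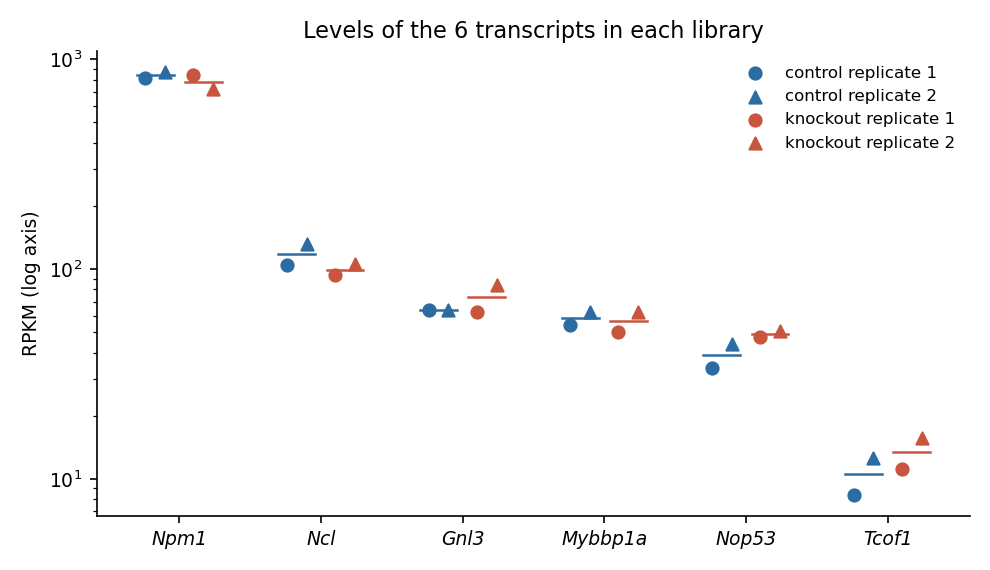
RPKM on a log axis for the 6 transcripts in each of the 4 libraries; points are libraries, circles replicate 1 and triangles replicate 2, and short lines are group means. Npm1 lies near 842 RPKM and Tcof1 near 10.5 RPKM in control, and the control and knockout points overlap for every transcript but Nop53.

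Part of this order depended on the length used. The Ncl value divides by 8202 bases, of which 2121 are coding and 5901 are 3′ untranslated. For Gnl3 and Mybbp1a the longest transcript is a retained-intron form of 2264 and 4448 bases, against 1947 and 4358 bases for the principal coding transcript. Per coding length, the control mean of Ncl became 456 ± 75.8 and that of Npm1 1570 ± 76.6, with the order of this pair kept. Nop53 rose above Mybbp1a on that scale, at 84.8 ± 16.0 against 64.5 ± 6.67, and changed places with Gnl3 between libraries. Which transcript forms were present was not measured here, and fold changes do not depend on the length apart from a small effect of the added pseudocount.

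The comparison of knockout with control asks whether these transcripts differed between the genotypes. Cre is listed for the knockout group only, so effects of Cre and of Ddx21 deletion cannot be told apart. None of the 6 passed the test in either direction, where 4.19% of 11742 tested genes did, 3.33% higher and 0.86% lower. The test was limma on log2(RPKM + 1) with its trend of variance on level, two-sided, with Benjamini-Hochberg adjustment over all tested genes, and fold changes are knockout minus control on that scale. At an unadjusted p under 0.05 the count of the 6 was also 0 on the deposited scale, where 1620 of the 11742 genes were higher and 288 lower. Voom on rescaled reads called 0 of the 6, where it called 21 of all tested genes higher and 6 lower. The median log2 fold change of the 6 was 0.062, below the 0.31 of all tested genes.

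Ncl stood at 104 and 132 RPKM in control and at 93.3 and 105 RPKM in knockout. Control replicate 2 was highest and knockout replicate 1 lowest, and the groups overlapped in the range shared by control replicate 1 and knockout replicate 2. The log2 fold change was -0.24 (SE 0.18, 95% interval -0.58 to 0.10, limma adjusted p = 0.428). That value was lower than those of all but 6.47% of tested genes.

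Npm1 stood at 813 and 871 RPKM in control and at 843 and 721 RPKM in knockout. Knockout replicate 2 was lowest and knockout replicate 1 lay between the control libraries. Its log2 fold change was -0.11 (SE 0.16, 95% interval -0.43 to 0.21, limma adjusted p = 0.649).

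Mybbp1a stood at 54.2 and 62.7 RPKM in control and at 50.2 and 62.7 RPKM in knockout. In each group replicate 2 was the higher one, and the groups overlapped almost fully. The log2 fold change was -0.055 (SE 0.19, 95% interval -0.43 to 0.32, limma adjusted p = 0.844), and it turned to 0.048 without control replicate 2 and to 0.10 without knockout replicate 1.

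Gnl3 was nearly equal in the control libraries, at 63.9 and 64.0 RPKM, and stood at 62.6 and 84.0 RPKM in knockout. Knockout replicate 2 alone was high, and knockout replicate 1 lay just below both controls. The log2 fold change was 0.18 (SE 0.19, 95% interval -0.19 to 0.54, limma adjusted p = 0.539). Without knockout replicate 1 it was 0.39 with an adjusted p of 0.0326, and without knockout replicate 2 it was -0.031. Over the 12 alternative settings its adjusted p ranged from 0.0326 to 0.957. The setting that called it also called 54.3% of all tested genes higher.

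Nop53 stood at 33.6 and 43.9 RPKM in control and at 47.2 and 50.8 RPKM in knockout. Both knockout libraries were above both controls, which made Nop53 the one transcript of the 6 whose groups did not overlap, where 62.9% of all tested genes had such groups, 55.5% higher and 7.38% lower. The log2 fold change was 0.34 (SE 0.20, 95% interval -0.050 to 0.73, limma adjusted p = 0.360), close to the median of all tested genes.

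Tcof1 stood at 8.41 and 12.6 RPKM in control and at 11.2 and 15.6 RPKM in knockout. Control replicate 1 was lowest and knockout replicate 2 highest, with the other pair of libraries overlapping between them. The log2 fold change was 0.33 (SE 0.27, 95% interval -0.21 to 0.87, limma adjusted p = 0.467). The intervals of the 6 transcripts leave room for changes of more than 0.3 on the log2 scale in at least 1 direction, so equal levels in the groups were not shown.

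The fold changes have to be read against a shift of the whole table. Relative to the control mean, the median gene was 0.12 higher in knockout replicate 1 and 0.50 higher in knockout replicate 2 on the log2 scale. All 6 transcripts except Nop53 lay below that shift in replicate 1, from -0.33 for Ncl to 0.11 for Tcof1, while Nop53 was at 0.29. In replicate 2 all but Tcof1, at 0.55, lay below it, from -0.22 for Npm1 to 0.39 for Gnl3 and Nop53.

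A TMM-type rescaling, which sets the trimmed mean of log ratios between libraries to 0, brought the median of all genes to 0.0078. After it Ncl stood at 116 and 153 in control and at 95.4 and 80.0 in knockout, in rescaled RPKM. Both knockout libraries were then below both controls. The same held for Npm1 (903 and 1010 against 863 and 548), Mybbp1a (60.2 and 72.7 against 51.4 and 47.6) and Gnl3 (70.9 and 74.2 against 64.0 and 63.8). Thus 4 of the 6 had groups that did not overlap and were lower, where 54.6% of tested genes did not overlap, 26.9% lower and 27.8% higher. Rescaled fold changes were -0.60 for Ncl (SE 0.21, adjusted p = 0.275), -0.47 for Npm1, -0.41 for Mybbp1a (SE 0.16, adjusted p = 0.3), -0.18 for Gnl3, -0.012 for Nop53 and -0.0059 for Tcof1. At an unadjusted p under 0.05, 2 of the 6 were lower by limma, Ncl and Mybbp1a. Limma called 0% of tested genes on this scale, though 946 genes were past that unadjusted threshold toward higher and 893 toward lower, and voom called 21 higher and 6 lower, so neither scaling gave a call for these transcripts. The adjusted p of Ncl ranged from 0.275 to 0.962 over 12 alternative settings.

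**Figure D2:**
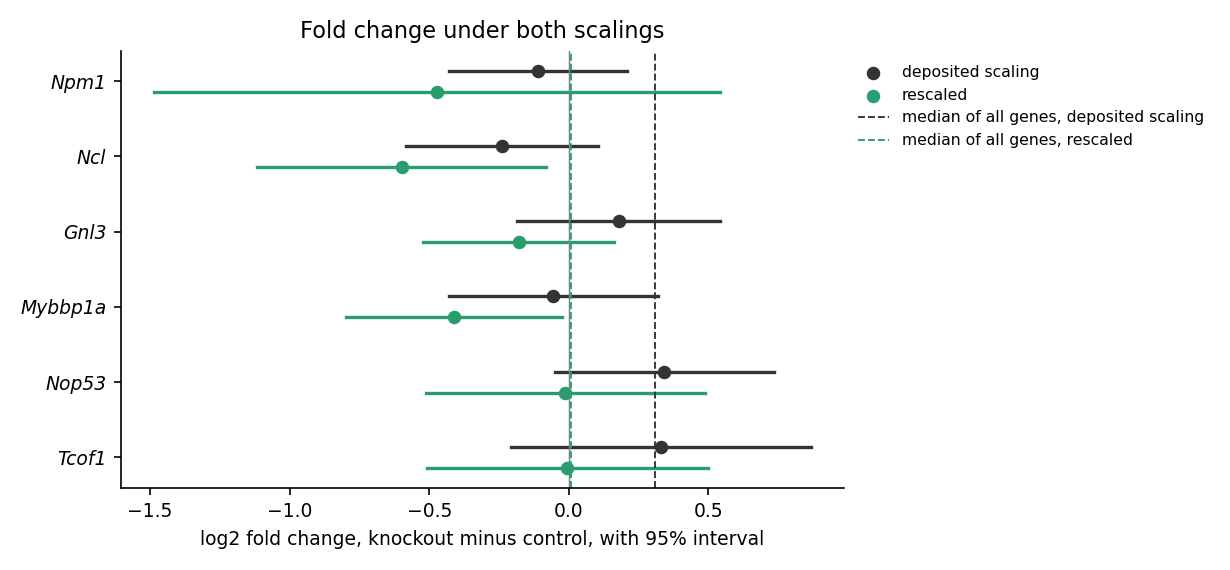
Log2 fold change, knockout minus control, with its 95% interval for each transcript under the deposited scaling (dark) and after TMM-type rescaling (green); dashed lines mark the median of all tested genes, 0.31 and 0.0078. Every dark interval crosses 0, and the green intervals of Ncl and Mybbp1a lie below 0.

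Fold changes in the table also varied with level. The median log2 fold change was 0.35 for the 3825 genes with a mean of 5 to 20 RPKM, 0.20 for the 2160 genes from 20 to 100 RPKM and -0.077 for the 599 genes from 100 to 1000 RPKM. Npm1, at -0.11, lay inside the interquartile range of genes of its level, -0.21 to 0.052, and Ncl, at -0.24, just below it. Gnl3 and Nop53 lay inside the interquartile range of theirs, 0.049 to 0.35, and Mybbp1a, at -0.055, lay below it. Tcof1 lay close to the median of genes of its level. After rescaling the medians were 0.026 at 5 to 20, -0.15 at 20 to 100 and -0.44 at 100 to 1000 RPKM, so Npm1 (-0.47) and Gnl3 (-0.18) lay close to the median of their level on that scale too. Ncl (-0.60) and Mybbp1a (-0.41) lay below theirs. The low place of Npm1 among all genes was thus shared by other genes of its level.

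**Figure D3:**
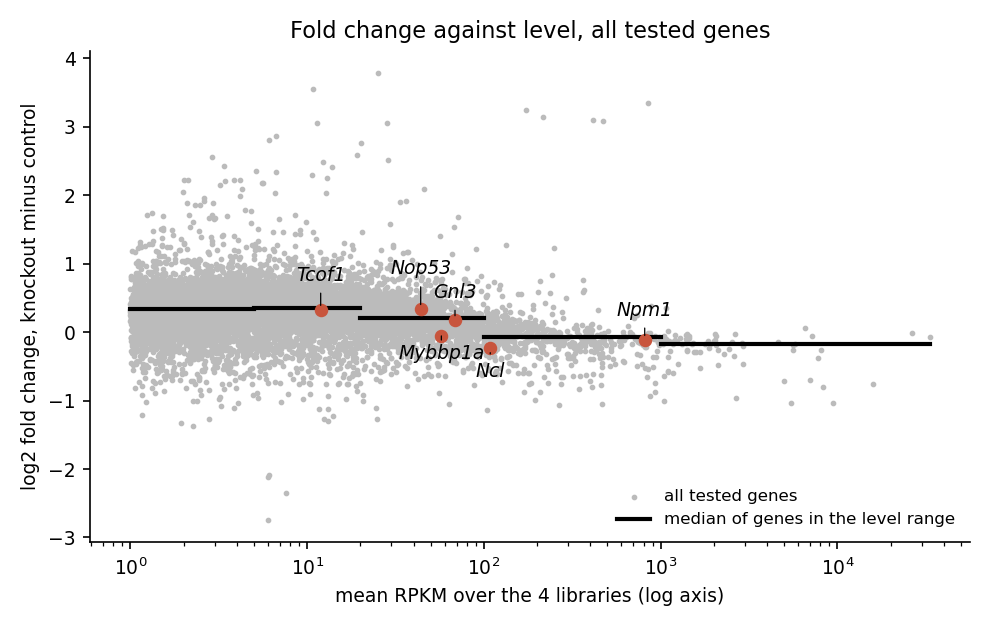
Log2 fold change, knockout minus control, against mean RPKM over the 4 libraries on a log axis; grey points are the 11742 tested genes, black lines the median in each level range and red points the 6 transcripts. The medians fall from 0.34 below 5 RPKM to -0.18 above 1000 RPKM, and Npm1 and Ncl sit among abundant genes with values below 0.

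Ratios between transcripts of the same library do not change when each library is scaled by a single factor, though quantile normalization can change them. Of the 15 pairs among the 6 transcripts, 8 had log2 ratios that did not overlap between the groups, or 53.3%, where 53.7% of all pairs of tested genes had such ratios. The clearest was Ncl to Nop53, with log2 ratios of RPKM of 1.63 and 1.58 in control and 0.98 and 1.05 in knockout. The 2 libraries of each group lay within 0.07 of each other, and the group means differed by -0.59. Ncl was also lower relative to Tcof1, with log2 ratios of 3.63 and 3.39 in control and 3.06 and 2.76 in knockout, and relative to Gnl3, with 0.70 and 1.04 against 0.58 and 0.33. The ratio of Ncl to Npm1 overlapped, at -2.97 and -2.73 in control and -3.18 and -2.78 in knockout. The ratios are described without a test, since an exact permutation test of 2 libraries against 2 cannot go below 0.333 and no other test was run on them. The share of pairs that separated was that of the background.

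**Figure D4:**
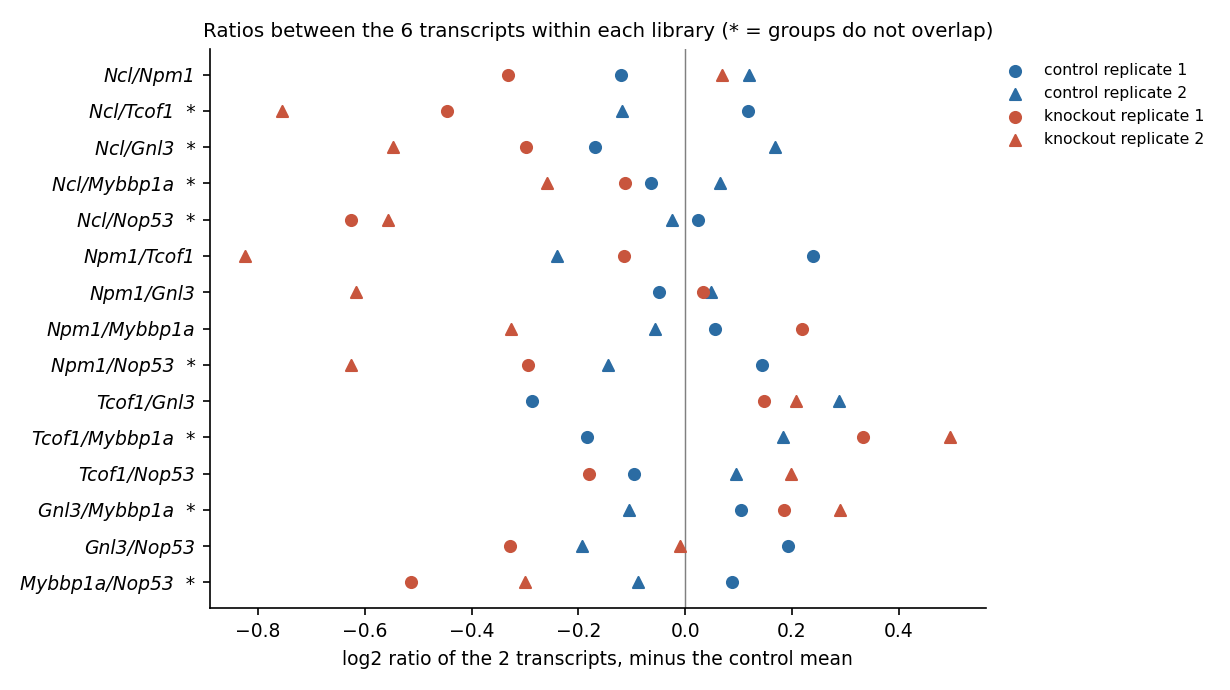
Log2 ratio of RPKM for each pair of the 6 transcripts in each library, minus the mean of the control libraries; circles are replicate 1, triangles replicate 2, and an asterisk marks the 8 pairs whose groups do not overlap. The knockout points of Ncl to Nop53 lie close together, on average -0.59 from the control mean.

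Npm1 has near-identical processed copies in the genome. Of 8 annotated pseudogenes that matched its principal transcript at 90% identity or more over at least 200 bases, 5 were in the table, namely Gm14681, Gm15484, Gm5611, Gm6477 and Gm9118. Their summed reads were 6.32% and 6.15% of the Npm1 reads in control and 6.2% and 6.4% in knockout. That share was almost constant across the libraries. Gm14681, the most abundant per length, stood at 73.3 and 77.2 RPKM in control and at 76.9 and 64.7 RPKM in knockout, which is the order of Npm1 itself, with reads at 2.27%, 2.23%, 2.3% and 2.26% of those of Npm1. How reads that match both were assigned is not given in the sources used here, so the separate values of Npm1 and its copies are uncertain. With the reads of all 5 copies added, an alternative chosen after seeing the data, the log2 fold change of Npm1 was -0.11 (adjusted p = 0.651, in a range of 0.117 to 0.994 over 13 alternative settings). One copy of Nop53 in the table, Gm6085, reached at most 1.36 RPKM. Of the other genes that overlap the 6, Pbrm1 shares 15 bases with Gnl3 and Spns2 shares 131 bases with Mybbp1a on opposite strands, and the use of strand in counting is not given.

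**Figure D5:**
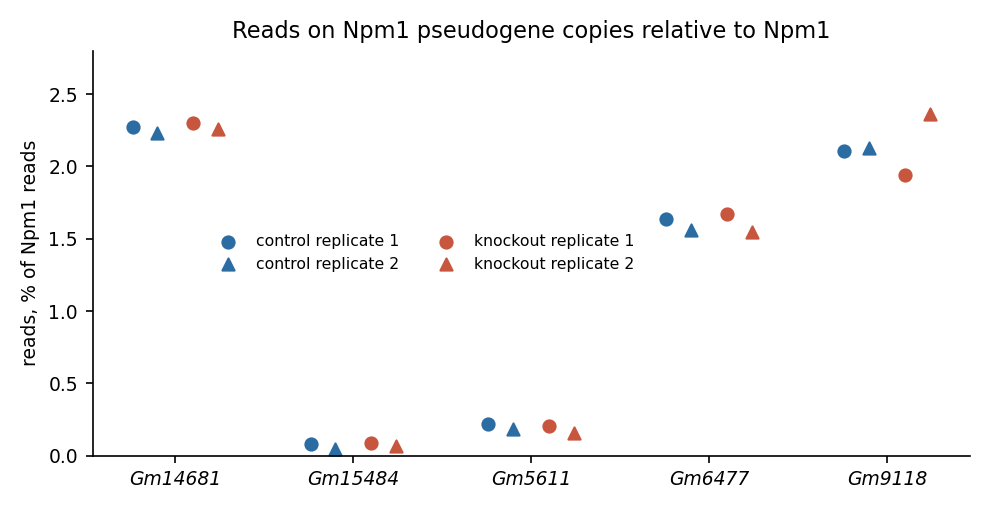
Reads on each of the 5 Npm1 pseudogenes in the table as a percentage of Npm1 reads, by library; circles are replicate 1 and triangles replicate 2. Gm14681 lies between 2.23% and 2.3% in all 4 libraries.

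The bounds of some of these genes also hold small RNAs of the class that guides rRNA modification. By coordinates, Snora75, Gm24148 and Snord82 lie within Ncl, Snord69, Gm24916 and Snord19 within Gnl3, and Snord23 within Nop53. Those small RNAs were not analysed here.

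Other nucleolar genes gave the background of the pathway. Among 6 tested relatives of the members 0 passed the test, with a median log2 fold change of 0.31. Gnl1 had 0.60, the mitochondrial ribosome GTPase Mtg1 0.50, the large subunit export GTPase Lsg1 0.34, the nucleolar GTPase Gnl2 0.27, the Npm1 relative Npm3 0.26 and the nucleostemin relative Gnl3l 0.088, with limma adjusted p-values from 0.332 for Mtg1 to 0.849 for Gnl3l. Gnl3l was the one whose groups overlapped, at 6.62 and 7.02 RPKM in control and 6.20 and 8.58 RPKM in knockout. Of 33 other nucleolar proteins 0 passed the test either, and their median was 0.15. In that list Ddx21, the targeted gene, stood at 10.95 and 12.1 RPKM in control and at 6.20 and 6.601 RPKM in knockout. It was lower in both knockout libraries, with a log2 fold change of -0.76 (SE 0.30, limma adjusted p = 0.158). Voom on rescaled reads gave Ddx21 an adjusted p of 0.0381, the one call in that list. The polymerase I initiation factor Rrn3 had 0.46 (SE 0.26, adjusted p = 0.356). Groups that did not overlap were found for 11 of the 33 toward higher and for 2 toward lower, Ddx21 and Nop10, the latter named after its values were seen. These counts compare with 55.5% of all tested genes toward higher and 7.38% toward lower.

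Of 9 genes for kinases, kinase subunits and a phosphatase that act on nucleolar phosphoproteins, 1 rose, where 3.33% of tested genes did. It was Plk2, a polo-like kinase that is itself a p53 target and counts in both lists, which rose from 1.31 and 0.84 to 3.95 and 7.98 RPKM (log2 fold change 1.70, SE 0.33, limma adjusted p = 2.89e-05). The count was 0 after TMM-type rescaling, quantile normalization or voom. The call was also lost without control replicate 1, control replicate 2 or knockout replicate 2. Without knockout replicate 1 the count rose, as did that of all tested genes. Of 11 tested genes of the nucleolar route to p53, 2 rose and 0 fell. Rps27l, a p53-induced ribosomal protein paralog, rose from 295 and 288 to 455 and 440 RPKM (0.62, SE 0.16, adjusted p = 0.00661). Mdm2 rose from 12.1 and 11.3 to 16.4 and 28.01 RPKM (0.82, SE 0.25, adjusted p = 0.0326) and is counted again among the p53 targets. The p53 route count was likewise 0 under those 3 scalings and without the variance trend, and 1 with the replicate block. Both calls were lost without each of the same 3 libraries. Without knockout replicate 1 this count also rose together with that of all tested genes. Named after their values were seen, Trp53 itself was at 0.16 (adjusted p = 0.543), Rpl5 at -0.21 (adjusted p = 0.451) and Rpl11, the partner of Nop53, at -0.13 (adjusted p = 0.588).

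Of 18 tested p53 target genes 16 rose and 0 fell, where 3.33% of all tested genes rose and 0.86% fell. The median of the 18 was 1.44. Cdkn1a, which encodes the cyclin kinase inhibitor p21, went from 2.61 and 2.10 to 31.5 and 64.3 RPKM (3.78, SE 0.28, limma adjusted p = 2.46e-39). Phlda3 (3.56, adjusted p = 2.73e-23) and Ccng1 (1.89, adjusted p = 8.73e-15) rose with it. The residual SDs of Cdkn1a, Phlda3 and Ccng1 (0.52, 0.55 and 0.35) exceeded the trend values used (0.28, 0.33 and 0.22). These p-values are therefore too small. After rescaling limma called 0 of the 18 p53 targets, where it called 0% of all tested genes. Voom called 7 of them, where it called 0.179% of all tested genes higher. The median of the 18 after rescaling was still 1.19 and Cdkn1a was at 3.48. The limma count on the deposited scale fell without control replicate 1, control replicate 2 or knockout replicate 2. The 6 nucleolar transcripts gave no call in the same libraries, and whether their response differs from that of p53 targets was not tested.

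Genes whose values followed each of the 6 were found by the root mean square difference over the 4 libraries between log2(RPKM + 1) profiles centred on their own means, among 4592 other genes averaging 10 RPKM or more. Ptges3 was nearest to Ncl (0.0153), Cyc1 to Npm1 (0.0147) and Cdc34 to Tcof1 (0.0149). Cdca5 was nearest to Gnl3 (0.0103), Caprin1 to Mybbp1a (0.0203) and Kdelr1 to Nop53 (0.0138). Second nearest were App, Gm14681, Chmp6, Qrich1, Gmppb and Slc25a1 in the same order, Gm14681 being the Npm1 copy described above. With 4 libraries such likeness is common: 1126 genes lay within 0.1 of Gnl3, 396 of Npm1, 240 of Mybbp1a, 84 of Tcof1, 83 of Nop53 and 52 of Ncl. Among the 6 themselves the closest pair was Ncl and Mybbp1a (0.114) and the farthest Npm1 and Tcof1 (0.358).

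Markers of cell types differed between the groups in the same libraries. In bulk samples fewer cells of a type and less RNA per cell cannot be told apart. The counts of markers that did not overlap compare with 55.5% of all tested genes toward higher and 7.38% toward lower. The 12 neutrophil and monocyte markers held 7.61% and 7.96% of reads in control and 5.53% and 3.64% in knockout. Of the 12, 11 were lower without overlap, and Csf1r overlapped. Elane, Mpo, Prtn3 and Ctsg in this list are primary granule genes of myeloid progenitors, so the share is not one of mature cells alone. Osteoblast and stroma markers held 0.0705% and 0.0577% in control and 1.09% and 0.309% in knockout, with 8 of 8 listed genes higher without overlap. Stem cell markers held 0.0519% and 0.0554% in control and 0.0736% and 0.0918% in knockout. Of the 9 listed genes 8 were higher without overlap. Among these markers Ly6a, Kit and Slamf1 encode Sca-1, c-Kit and CD150 of the sort gate, so the sort itself selected for them. In every library the stem cell share was far below that of the neutrophil and monocyte markers. In control, Elane stood at 19570 and 19798 RPKM and S100a8 at 12521 and 12601 RPKM, against 83.2 and 127 RPKM for Ly6a. Which cell types gave the myeloid reads in the control libraries was not tested. Megakaryocyte markers held 0.041% and 0.0405% in control and 0.0529% and 0.0937% in knockout, with 5 of 5 listed genes higher without overlap. The 8 erythroid markers held between 0.0178% and 0.0289% in all libraries, with 2 higher and 2 lower without overlap. Of 6 T and NK cell markers only Nkg7 was listed, at 0.108% and 0.117% in control and 0.0778% and 0.066% in knockout, lower without overlap. The 3 listed of 6 B cell markers held at most 0.00553%, and all 3 were higher without overlap. The part of these differences in the values of the 6 transcripts was not tested.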

How the data were processed

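Libraries were made with a Smart-Seq V4 kit from sorted cells, per the labels' protocols. The deposited table holds 1 RPKM value per gene and library, a unit read from the values: times the longest GENCODE M21 transcript, at least 99.4% were whole reads within 0.1. The submitters' processing notes name the build mm10; aligner and counter: not given in the sources used here. Values without reads stand at 0.001. Every gene of the deposited table reached at least 1.0063 RPKM in some library, so genes lower than that could not be analysed. Symbols and lengths were found for 12384 of 12390 IDs.

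From the deposited RPKM values, limma 3.58.1 in R 4.3.3 was fitted with genotype as its term on log2(RPKM + 1) for the 11742 genes averaging 1 RPKM or more, called at an adjusted p under 0.05. In this fit the prior degrees of freedom were infinite, so each gene's spread came from the trend. Genes whose replicates lie apart then get p-values that are too small. After rescaling the prior degrees of freedom were finite, so each gene's own spread also counted. The fit was tested on simulated data. TMM-type factors trimmed 30% of log ratios and 5% of levels per side. Pseudogenes were matched with blastn 2.17.0. Replicate counts differed beyond sampling noise (chi-square per degree of freedom 48.5 in control and 150.0 in knockout), so each library was counted once. Alternatives were other scalings, pseudocounts, filters, tools, a replicate block and each library left out.

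Named genes were the 6, their relatives, up to 3 called genes per list or else the 2 with the smallest p, and the 2 nearest patterns. Members and lists were chosen with earlier results of these data known. One coding stretch is not reported here.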

Additional observations from a re-analysis of the deposited data

How the results depend on the processing

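Counts of genes higher and lower, 391 and 101 in the reported test, were 0 and 0 after TMM-type rescaling and with quantile normalization, 21 and 6 with voom on rescaled reads, and 175 and 64 with the replicate block; 235 were higher with a mean of at least 5 RPKM and 52 lower without the variance trend. The kinase, p53 route and p53 target counts of higher genes, 1, 2 and 16, were 0, 0 and 0 after rescaling and after quantile normalization and 0, 0 and 7 with voom. The p53 targets kept a median log2 fold change of 1.19 after rescaling. The p53 route count was 0 without the trend and 1 with the replicate block; the kinase count was 0 and the target count 8 with the stricter filter, where 10 target genes were tested. In the nucleolar list voom called 1 gene lower, Ddx21. The replicate block changed no other count by more than 1.5 times and left all 6 transcripts uncalled. The numbers were not taken as pairs, since the labels do not say that a number marks a shared animal, litter or day. Same-numbered libraries showed a correlation of deviations of 0.0668 over 11742 genes. With 2 libraries a group, that value cannot decide whether they were paired.

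For the 6 transcripts the median log2 fold change of 0.062 became -0.30 after rescaling and -0.29 with voom. Tcof1 turned to -0.0059 and -0.0012 under these settings, Gnl3 to -0.18 under both, and Nop53 to -0.012 after rescaling; Npm1 turned to 0.15 with quantile normalization. The cause was not tested, beyond the shift of all genes given above.

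Leaving out 1 library each gave 27 to 6375 genes higher and 5 to 530 lower, both highest without knockout replicate 1. Members called higher ranged from 0 to 1, relatives from 0 to 4, nucleolar genes from 0 to 12 higher and 0 to 1 lower, kinases from 0 to 3, the p53 route from 0 to 5 higher and 0 to 1 lower, and p53 targets from 4 to 18. The median ranged from -0.046 to 0.24. Ncl ranged from -0.41 to -0.070, Npm1 from -0.22 to 0.0025, Tcof1 from 0.066 to 0.59, Gnl3 from -0.031 to 0.39, Mybbp1a from -0.21 to 0.10 and Nop53 from 0.15 to 0.53. A lone library was assumed to vary like the other group. The 2 libraries a group limit these values; read depth limits them less, at a counting error of at most 2.15%, which leaves out the sampling of molecules before amplification.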
